A study of Gallus gallus with 9 samples.

Results

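The 200 chicken genes described here were lower in primordial germ cells (PGCs) than in both chicken embryonic fibroblasts (CEFs) and EGK.X blastoderms. They were taken from the 24356 genes of the deposited normalized matrix, of which 24202 remained after the 154 genes on the study's own lists of DNA repair, apoptosis, and pluripotency genes were set aside. Each gene was scored as the log2 ratio of the lowest of its 6 CEF and EGK.X values to the highest of its 3 PGC values, with 1 added to both, and the 200 highest scores were kept. The genes were thus chosen by the normalized values of all 9 libraries, so their low level in PGCs is given as a description and nothing is read from a test of it. The tables used here list genes by Ensembl identifier, and the identifiers of 0 of the 200 genes matched the chicken reference table. These genes are therefore described by their values, with 4 identifiers printed, and no function, position, or sequence is given for them.

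PGCs are the founders of eggs and sperm. In the chicken they carry maternally inherited germ plasm, leave the epiblast early, travel through the blood, and settle in the embryonic gonads. In the mouse, the specification of PGCs includes the repression of genes used by somatic cells, in which the transcriptional repressor PRDM1 takes part. Genes that are active both in a pluripotent embryo and in a somatic culture, but low in gonadal PGCs, are the subject of the comparison below.

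All cells came from White Leghorn chickens, and there were 3 biological replicates of each group. CEFs were adherent cells grown from the body of 5 embryos per replicate at HH stage 28 (embryonic day 6), after organs and limbs were removed, and were cultured to passage 2. Each EGK.X replicate pooled 10 blastoderms of freshly laid eggs, which contain area pellucida and area opaca cells and not pluripotent cells alone. PGCs were pooled from 484 to 684 gonads per replicate at HH stage 28 and were enriched with magnetic beads against the surface antigen SSEA-1, without culture. In each replicate, the authors stained bead-bound and unbound cells for SSEA-1 to check that the bound cells were PGCs. Their methods give no share of stained cells. Total RNA was depleted of ribosomal RNA and sequenced, and total counts on genes ranged from 29512715 in PGC replicate 2 to 67475925 in EGK.X replicate 2. EGK.X replicate 3 stood apart from the other blastoderm libraries, and values without it are given with the replicate spread.

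The labels were first checked with the pluripotency factors of the study's lists. *NANOG*, a homeobox factor of pluripotent and germ cells, had 5421 to 10558 counts in the PGC libraries, 38602 to 48462 in the EGK.X libraries, and 2, 0, and 0 counts in the CEF libraries. *Pou5f3*, the chicken relative of the mammalian POU5F1 gene, had 261 to 458 counts in CEF libraries, but 29458 to 42849 in those of EGK.X blastoderms and 7688 to 13852 in those of PGCs. *SOX2* had fewer counts, 133 to 247 in PGC libraries, 101 to 405 in EGK.X libraries, and 7, 2, and 0 in CEF libraries. These genes were thus present in PGCs and far lower in CEFs. They were also present in EGK.X blastoderms, so they do not tell PGCs from blastoderm cells. The planned markers of germ cells, fibroblasts, gonadal somatic cells, blood, and endothelium have no identifier paired with a name here. The germ cell label, the fibroblast label, and the share of other gonadal cells among the PGCs were therefore not examined with them. In bulk libraries such as these, fewer cells that express a gene and less RNA per cell cannot be told apart.

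Scores were lower than those of the corresponding sets for the other groups. By the same formula, 380 candidate genes had a score above 1 with PGCs as the low group, against 685 with EGK.X blastoderms and 807 with CEFs as the low group. A score above 3 was reached by 20, 43, and 102 genes, respectively. The score of rank 200 was 1.36 for PGCs, 1.89 for EGK.X blastoderms, and 2.33 for CEFs. These numbers describe the 9 libraries and were not tested against each other. At the limit of the set, the scores changed smoothly. Ranks 198 to 200 had scores of 1.360, 1.357, and 1.357, and ranks 201 to 203 had scores of 1.353, 1.349, and 1.347.

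**Figure D1:**
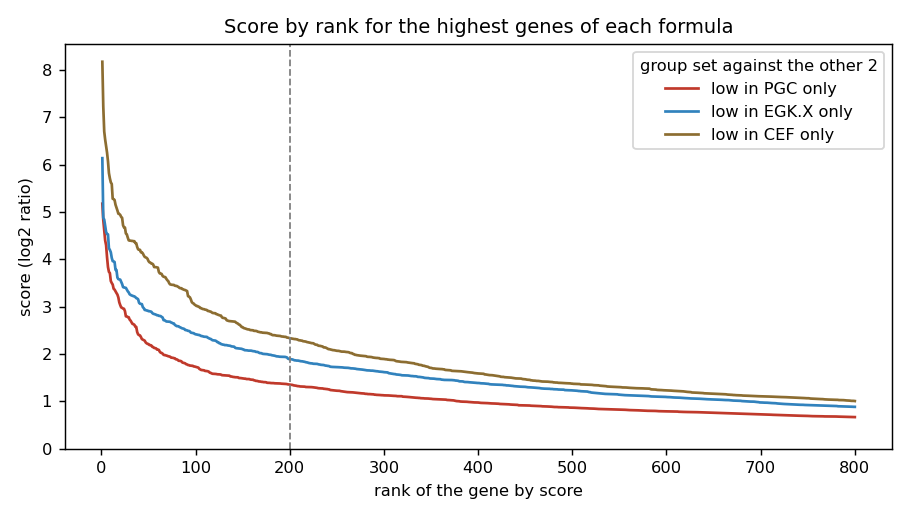
Score (log2 ratio of the lowest value in the other groups to the highest value in the low group, 1 added to both) against rank for the genes with the highest scores, with PGCs, EGK.X blastoderms, or CEFs as the low group. The dashed line marks rank 200, where the PGC curve is at 1.36, below the curves of EGK.X blastoderms (1.89) and CEFs (2.33).

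The levels of the 200 genes are given as normalized counts, the deposited CPM after TMM scaling. In the CEF replicates the median gene of the set stood at 81.6, 78.1, and 87.8, and in the EGK.X replicates at 46.0, 48.9, and 50.3. In the PGC replicates it stood at 6.12, 6.42, and 5.85. Levels in CEFs and EGK.X blastoderms covered a wide range, and 51 of the genes had a lowest CEF or EGK.X value of at most 10. Group means ran from 3.16 to 5087 in CEFs and from 2.19 to 1266.5 in EGK.X blastoderms, and 93 genes in CEFs and 61 genes in EGK.X blastoderms had a mean of at least 100. Together they took 3.30% to 3.61% of all gene counts in CEF libraries, 2.30% to 2.39% in EGK.X libraries, and 0.474% to 0.510% in PGC libraries.

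**Figure D2:**
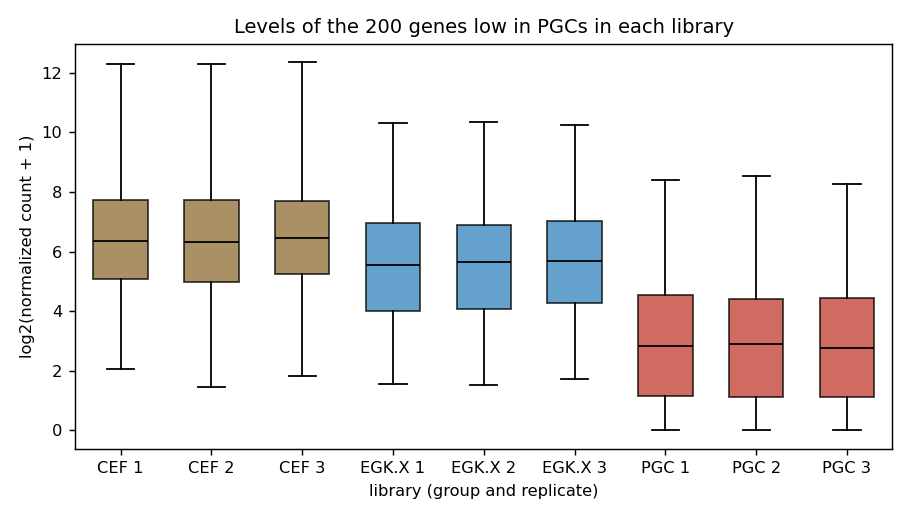
Distribution of log2(normalized count + 1) of the 200 genes in each of the 9 libraries; boxes span the quartiles, lines mark medians, and whiskers reach the lowest and highest gene. Replicates of a group look alike, and the untransformed medians are 5.85 to 6.42 for PGCs, 46.0 to 50.3 for EGK.X blastoderms, and 78.1 to 87.8 for CEFs.

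Low in PGCs did not mean absent from the PGC libraries. How many of these counts came from other gonadal cells was not examined. The highest PGC value was below 1 for 37 of the genes, between 1 and 10 for 84, between 10 and 100 for 68, and at least 100 for 11. In 131 genes every PGC library held at least 100 counts, and the highest count of any of the genes in a PGC library was 23648. For 3 genes, ranked between 106 and 131, no PGC library held more than 3 counts. Taking 3 counts per PGC library as the floor, they were at least 169-fold to 542-fold higher in CEFs and at least 37.5-fold to 54.2-fold higher in EGK.X blastoderms.

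The mean in CEFs was 12.8-fold (median) and the mean in EGK.X blastoderms 7.14-fold (median) above the mean in PGCs, also with the 3 genes at their bounds. The size of these folds depends in part on the TMM factors, as given below. The other 197 genes ranged from 2.90-fold to 3401-fold for CEFs and from 2.83-fold to 241-fold for EGK.X blastoderms. The top of the range for CEFs rested on a gene with 15, 2, and 4 counts in the PGC libraries. That for EGK.X blastoderms rested on a gene with every PGC value below 1. In 58 genes both means were at least 10-fold above the PGC mean, and in 3 both were at least 100-fold above it. These counts used the PGC means as measured, without the floor. Genes at the floor can be among those counted at 100-fold. Their EGK.X folds are bounded only at 37.5 to 54.2, so 100-fold is not shown for them.

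As the rule requires, each of the 200 genes was separated from PGCs in every library, a pattern found in 14.5% of the 22698 genes with a count. The same holds for the edgeR quasi-likelihood fit, in which the choice of the genes fixed the calls. All 200 were called lower in PGCs than in CEFs and lower in PGCs than in EGK.X blastoderms, while 18.5% of all genes tested were called lower in each comparison, and nothing is read from this difference. Genes were called where the adjusted p was below 0.05 and the change exceeded 2-fold. The comparisons share the PGC libraries, and the rule used both of them. The median log2 fold change of the 200 genes was -3.67 against CEFs and -2.84 against EGK.X blastoderms, and for all genes it was 0.05 and 0.03. Scaled by library size only, these medians were -2.98 and -2.66 for the 200 genes and 0.73 and 0.21 for all genes. The TMM factors were 1.16 to 1.26 for PGCs, 0.739 to 0.771 for CEFs, and 1.03 to 1.13 for EGK.X blastoderms.

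ENSGALG00000005739 had the highest score, 5.17. CEFs had normalized counts of 243, 412, and 346, EGK.X blastoderms 135, 131, and 172, and PGCs 1.81, 2.64, and 1.47. The group means were 334 ± 85.1, 146 ± 22.9, and 1.97 ± 0.60 (SD, n = 3). Even the lowest of the other 6 libraries was 49.4-fold above the highest PGC library, which held 98 counts. EGK.X blastoderms were below CEFs without overlap (log2 fold change -1.20, standard error 0.22, adjusted p = 0.000524, edgeR quasi-likelihood test). Scaled by library size only, the change was -0.68 and was not called.

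ENSGALG00000013929 was second, with a score of 4.83. It had normalized counts of 82.6, 76.4, and 161 in CEFs and of 108, 89.0, and 58.0 in EGK.X blastoderms, so these groups overlapped. The PGC replicates were at 0.94, 0.84, and 1.08, from 66, 31, and 63 counts. The change from CEFs to EGK.X blastoderms was not called, which does not show the groups to be equal (log2 fold change -0.33, standard error 0.28, adjusted p = 0.341, edgeR quasi-likelihood test).

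By range of score, the levels were as follows, again as a description of values that the rule used. The 20 genes with scores of 3 or more had a median of 2.89 for the PGC mean, 83.6 for the EGK.X mean, and 107 for the CEF mean. Their CEF means were 10.4-fold to 535-fold above the PGC means, and their EGK.X means 10.1-fold to 208-fold above them. The 45 genes with scores between 2 and 3 had medians of 3.41, 37.5, and 106. The 135 genes below a score of 2 had medians of 7.97, 51.3, and 69.5, and their median folds over PGCs were 7.65 from CEFs and 4.94 from EGK.X blastoderms.

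The rule did not set EGK.X blastoderms against CEFs, and this difference was fitted gene by gene. The rule did use the values of both groups, so the adjusted p of each named gene is given as a description. The genes named below for the largest fall and rise were picked by this same change. It required a level in both, which leaves out genes that are off in either group. The lowest of the 6 values lay in an EGK.X library for 141 of the 200 genes and in a CEF library for 59. Of the 200 genes, 83 (41.5%) were called lower and 16 (8%) higher in EGK.X blastoderms than in CEFs, and 101 were not called. Among all 22698 genes tested, 21.6% were called lower and 23.1% higher. Among the 9564 candidate genes that were as high as the lowest of the 200 in every CEF and EGK.X library, 23.9% were called lower and 18.2% higher. That limit was 1.74, far below the median of 32.5 for the lowest CEF or EGK.X value of the 200 genes. These 9564 genes were thus not matched on level. The median log2 fold change was -0.65 for the 200 genes, 0.09 for all genes tested, and -0.01 for those 9564 genes. By count, a larger share of the 200 genes was called lower, and a smaller share higher, than in either background. As the choice of the genes used the values of both groups, these shares are a description. The set itself was not tested.

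The TMM factors were 0.739 to 0.771 for CEFs and 1.03 to 1.13 for EGK.X blastoderms, so the split depended in part on them. When libraries were scaled by their size only, 60 of the 200 genes were called lower and 27 higher. Calls over all genes moved the same way, from 4896 to 3670 lower and from 5245 to 7256 higher. The median of all genes rose from 0.09 to 0.59. Measured from that median, the 200 genes were at -0.74 with TMM factors and at -0.73 without them. Scaling moves all genes by nearly the same amount, so this distance could hardly change, and nothing is read from its agreement. Compared library by library, all 3 CEF values were above all 3 EGK.X values in 100 of the genes, against 27.8% of all genes tested. The opposite order held in 29 genes, against 31.6% of all genes tested, and the groups overlapped in the remaining 71.

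**Figure D3:**
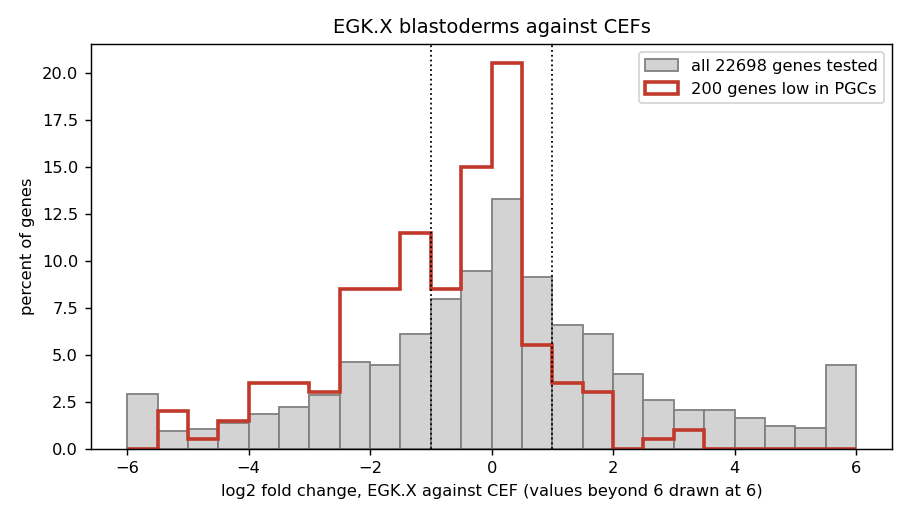
Percent of genes by log2 fold change of EGK.X blastoderms against CEFs for the 22698 genes tested (grey) and the 200 genes low in PGCs (red line); dotted lines mark the call thresholds and values beyond 6 are drawn at 6. The 200 genes are shifted to the left, with a median of -0.65 against 0.09.

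The 83 genes called lower in EGK.X blastoderms were graded over the groups, an order that the call and the rule fixed together. Their median means were 116 for CEFs, 25.2 for EGK.X blastoderms, and 2.47 for PGCs. Their log2 fold changes lay between -5.33 and -1.02, with a median of -2.12, and 22 of them were beyond -3. The largest fall was that of ENSGALG00000006583, which ranked 198 by score. CEFs had normalized counts of 412, 486, and 281, EGK.X blastoderms 8.70, 10.5, and 10.1, and PGCs 1.96, 2.78, and 2.67. The log2 fold change of EGK.X blastoderms against CEFs was -5.33 (standard error 0.23, adjusted p = 2.74e-09, edgeR quasi-likelihood test). For this gene the distance between EGK.X blastoderms and PGCs was far smaller than that between CEFs and EGK.X blastoderms, and it entered the set near the limit.

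The 16 genes called higher in EGK.X blastoderms had, as the call and the rule require, their highest median there. It was 96.1, against 25.6 in CEFs and 4.92 in PGCs. Their median log2 fold change was 1.61, and 3 of them were beyond 2. ENSGALG00000011094 had the largest rise, 3.24 (standard error 0.19, adjusted p = 2.47e-08, edgeR quasi-likelihood test). EGK.X blastoderms had normalized counts of 192, 178, and 190.3, CEFs 18.4, 22.3, and 18.6, and PGCs 5.25, 6.42, and 3.86. The replicates of each group were close to each other, and no group overlapped with another.

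The 101 genes that were not called had nearly equal medians in CEFs (70.8) and EGK.X blastoderms (75.9), against 11.8 in PGCs. This closeness follows in part from how the class was defined. Their median log2 fold change between EGK.X blastoderms and CEFs was 0.00, and 30 of them reached an adjusted p under 0.05 in edgeR with a change of less than 2-fold. This group comes closest to a pattern of 1 level in CEFs and EGK.X blastoderms and another level in PGCs. A gene that was not called was not thereby shown to be equal in CEFs and EGK.X blastoderms.

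**Figure D4:**
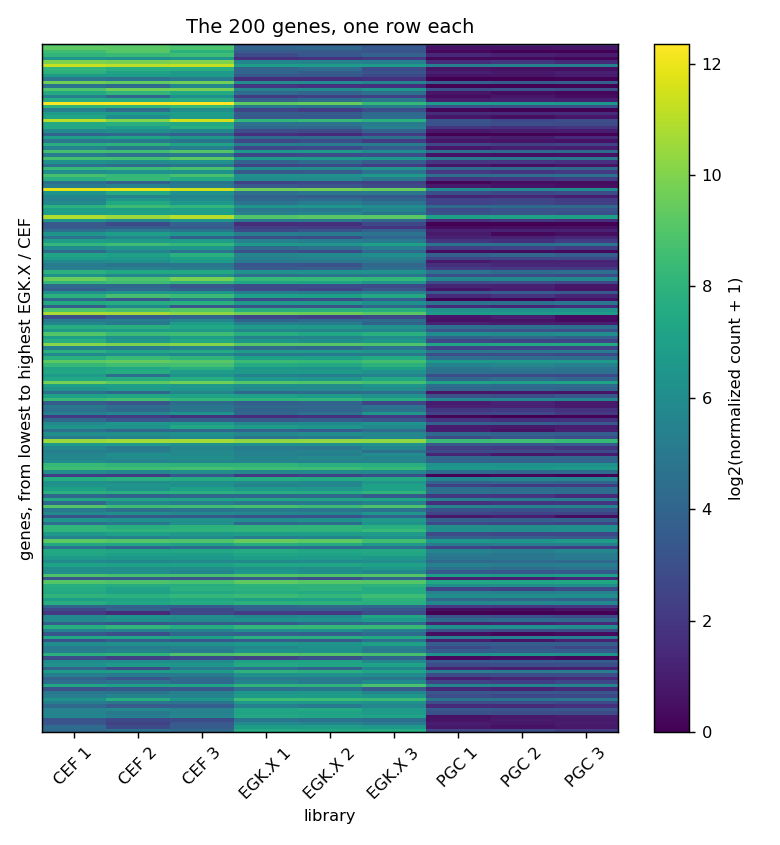
Heat map of log2(normalized count + 1) for the 200 genes, 1 row per gene, in the 9 libraries, ordered from the lowest to the highest log2 fold change of EGK.X blastoderms against CEFs. The PGC columns are darker than the others in each row. CEFs exceed EGK.X blastoderms toward the top, where most of the 83 genes called lower lie, and EGK.X blastoderms exceed CEFs at the bottom, where the 16 genes called higher lie.

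The calls between CEFs and EGK.X blastoderms are also given by the level left in PGCs, as counts without a test. The rule itself links these measures, since a gene that is low in EGK.X blastoderms can enter the set only if it is still lower in PGCs. The lowest CEF or EGK.X value went down to 1.74 among genes with every PGC value below 1, but only to 31.4 among those with a highest PGC value between 10 and 100. Of the 37 genes with every PGC value below 1, 24 were called lower and 4 higher in EGK.X blastoderms, with a median log2 fold change of -1.64. Of the 84 genes with a highest PGC value between 1 and 10, 39 were called lower and 9 higher. Of the 68 between 10 and 100, 17 were called lower and 3 higher, with a median of -0.14. The 17 are 25% of these genes, near the 21.6% of all genes tested and the 23.9% of the 9564 candidate genes. Of the 11 with at least 100 in a PGC library, 3 were called lower and none (0) higher. Because of that link, no trend is read from these counts.

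Replicates of PGCs were the most alike on a scale with 1 added, which dampens the low PGC levels of the 200 genes most. The median SD of log2(normalized count + 1) of the 200 genes was 0.10 between PGC replicates, 0.23 between CEF replicates, and 0.26 between EGK.X replicates. Over all genes with a count it was 0.08, 0.13, and 0.14. EGK.X replicate 3 stood apart from the other EGK.X replicates: 41 of the 200 genes were more than 1.5-fold above their mean and 28 more than 1.5-fold below. That is 20.5% and 14.0%, against 13.1% and 11.8% of the 9564 candidate genes, which were not matched on level. These ratios were taken with 1 added to both values, which dampens low levels, and on that scale the number of such genes was 0 in each PGC library. Without the added 1, the PGC replicates were more than 2-fold apart in 22 genes, the EGK.X replicates in 29, and the CEF replicates in 33. CEF replicate 2 held the lowest CEF value for 86 of the genes. As the score takes the lowest value, these libraries bear on membership. Without EGK.X replicate 3, 159 of the 200 genes were kept, and without CEF replicate 2, 177 were kept. The comparison of EGK.X blastoderms with CEFs then gave 90 and 89 of the 200 genes lower and 17 and 15 higher, respectively. Over all genes it gave 4973 and 4862 lower and 5204 and 4981 higher.

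The genes on the study's lists were left out by the rule, and the same score was applied to them afterwards. Only 3 of them would have passed the limit. These genes were named after their values were seen, so the adjusted p of each is given as a description. The 3 genes were *TNFRSF10B*, *BMP4*, and *MYC*, so 1 of 22 apoptosis genes, 2 of 25 pluripotency regulating genes, and 0 of 106 DNA repair genes with a count. Among candidate genes with a count it was 200 of 22545, and no difference between the lists is read from so few genes. PGC values below all 6 others were found in 8 of the apoptosis genes, 6 of the pluripotency regulating genes, and 15 of the DNA repair genes, which is 36.4%, 24.0%, and 14.2%, against 14.5% of all genes tested.

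*TNFRSF10B* (ENSGALG00000000452, chromosome 22, 1415487 to 1422100 of GRCg6a) encodes a death receptor of the tumor necrosis factor receptor family. CEFs had normalized counts of 89.3, 85.4, and 111, EGK.X blastoderms 25.7, 26.3, and 37.2, and PGCs 4.41, 5.26, and 5.33. Like those of the 200 genes that were called lower in EGK.X blastoderms, it was graded. It was lower in EGK.X blastoderms than in CEFs (log2 fold change -1.68, standard error 0.18, adjusted p = 6.35e-06, edgeR quasi-likelihood test).

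*BMP4* (ENSGALG00000012429, chromosome 5, 58714564 to 58717395) encodes a secreted ligand of the BMP pathway, which patterns the early embryo. EGK.X blastoderms had normalized counts of 37.8, 43.1, and 44.4, CEFs 8.07, 13.3, and 12.6, and PGCs 0.98, 1.43, and 1.01, the last from 53 to 69 counts. It belonged to the pattern with EGK.X blastoderms on top (log2 fold change against CEFs 1.885, standard error 0.23, adjusted p = 1.63e-05, edgeR quasi-likelihood test).

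*MYC* (ENSGALG00000033631, chromosome 2, 139734098 to 139738744) encodes a transcription factor that promotes growth and proliferation. EGK.X blastoderms had normalized counts of 179, 239, and 396, CEFs 70.6, 94.1, and 76.8, and PGCs 15.0, 17.8, and 18.3. EGK.X replicate 3 was the highest of all libraries. *MYC* was higher in EGK.X blastoderms than in CEFs (log2 fold change 1.75, standard error 0.25, adjusted p = 5.53e-05, edgeR quasi-likelihood test).

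**Figure D5:**
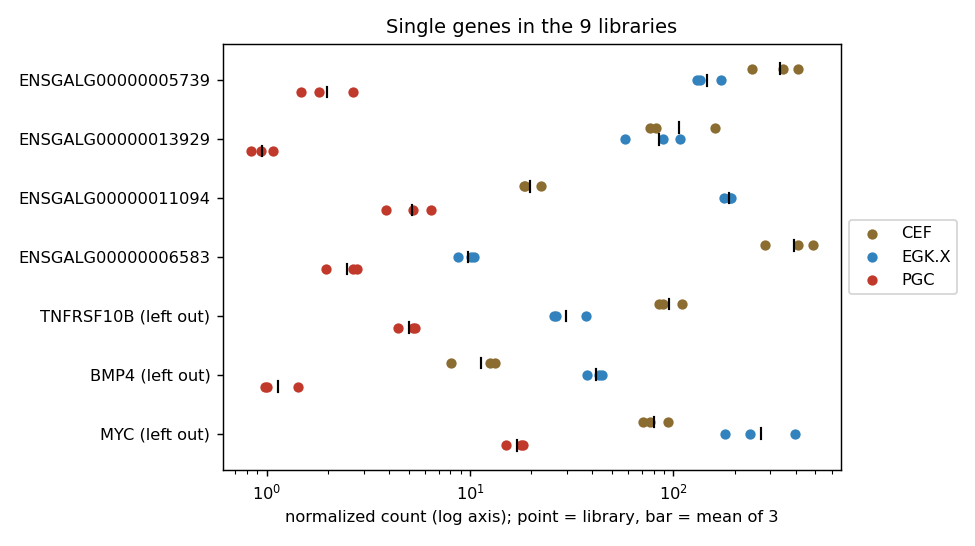
Normalized counts (log axis) of 4 of the 200 genes and of *TNFRSF10B*, *BMP4*, and *MYC*, which the rule left out, with 1 point per library and a bar at the mean of 3. In every gene the PGC points lie left of the other groups, while CEFs and EGK.X blastoderms change places between genes, as with ENSGALG00000006583 (CEFs at 281 to 486) and ENSGALG00000011094 (EGK.X blastoderms at 178 to 192).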

How the data were processed

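According to the methods, the authors trimmed reads with Trimmomatic 0.39, aligned them with HISAT2 2.2.0 to GRCg6a, and counted them with HTSeq-count on Ensembl genes. The deposited files hold raw counts for each gene, 1 library per file. The version, the strand setting, and the overlap mode of HTSeq-count are not given in the sources used here, which leaves values of overlapping and antisense genes uncertain. The normalized signal was made by the authors as CPM of the TMM-adjusted library size, and it differed from a recomputation by at most 3.25e-06%. Relative to all records, those outside genes made up 26.6% to 36.2%, and the 5 summary entries were left out.

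The 22698 genes with a count were fitted together for the 9 libraries with edgeR 4.0.16 in R 4.3.3 (TMM factors, quasi-likelihood test, no replicate block), with Benjamini-Hochberg adjustment over all of them. The fit was also run on simulated counts in which the groups had equal means for all but a small set of genes. The data hold far more changes, so nothing is read from that run. Each standard error was derived from the estimate and its F statistic. The score and levels used the normalized matrix. Gene names and coordinates came from the study's gene lists. The planned marker and pathway lists were not used, since identifiers are not paired with names here. By the rule for naming genes, the 2 identifiers with the highest score and the called ones with the largest rise and fall in EGK.X blastoderms were printed. The genes and lists were chosen with earlier results of these data known. Alternatives were the likelihood ratio test of the paper, DESeq2 1.42.0, its size factors, library size alone, filterByExpr, 2-group fits, a replicate block, limma 3.58.1 on log2(normalized + 1), the adjusted p alone, other scores, and each library left out. Every replicate is a pool of embryos, so the spread between single animals was not measured, and the floor of 3 counts covers counting error only.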

Additional observations from a re-analysis of the deposited data

How the results depend on the processing

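The choice of the genes fixed their calls as lower in PGCs, so these calls say nothing about stability; library size alone called 192 of the 200 against CEFs. Other values moved as follows. For EGK.X blastoderms against CEFs, the 16 genes called higher became 27 with library size alone and 29 with the adjusted p alone. The 5245 called higher over all genes became 7256 and 6823, respectively. Over all genes, limma on the normalized values called 3108 higher in that comparison in place of 5245, 3431 higher in PGCs than in CEFs in place of 5387, and 3430 higher in PGCs than in EGK.X blastoderms in place of 5300. Library size alone called 2616 genes lower in PGCs than in CEFs in place of 4193, and raised the share of higher calls from 51.7% to 66.4% (EGK.X blastoderms against CEFs) and from 56.2% to 75.1% (PGCs against CEFs).

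With a pseudocount of 10 in the score 126 of the 200 genes were kept, with 0.1 it was 138, with library size alone 167, and with group medians 155. The 50 highest were kept in each of these but the first, which kept 43. The change of ENSGALG00000005739 went from -1.20 to -0.68 with library size alone and was no longer called. The uncalled change of ENSGALG00000013929 turned to 0.16 with library size alone, and it ranged from -0.54 to 0.10 (without CEF replicate 3) when 1 library was left out.

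With 1 library left out, 159 to 195 of the 200 genes were kept, and in EGK.X blastoderms against CEFs 80 to 90 of the 200 were called lower and 15 to 18 higher. Over all genes, 4900 to 5204 were then higher and 4560 to 4973 lower. Same-numbered replicates of different groups deviated with correlations from -0.19 to 0.26, and not every library went best with its own number, so the numbers were not taken as pairs. A replicate block gave 83 of the 200 genes lower and 16 higher, and over all genes 4673 lower and 4945 higher.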
